A study of Mus musculus with 6 samples.

Results

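Tissue macrophage and myeloid genes were followed in the outer and the intermediate interzone of the mouse embryo. They are 42 named genes of resident macrophages, of leukocytes in general and of myeloid receptors, and 36 of them were among the 18001 genes tested. They were chosen by gene name among the spots of the arrays, where 54 probes carried them, with earlier results of these data known. Of these genes, 40 were found by the name in the files, and Spi1 (named Sfpi1 there) and Pirb (named Lilrb3 there) through the RefSeq accession of the probe. Emr1 is the name in the files for Adgre1, an adhesion receptor that marks mouse macrophages. The interzone is the cell band that forms where a synovial joint will lie. Its outer layers border the cartilage, with the intermediate layer between them. RNA of outer interzone (3 samples) and of intermediate interzone (3 samples) came from embryos at 15.5 days of gestation, 1 embryo per replicate by the series' design. No strain, genotype or treatment is given in the labels. The method of separating the layers is not given in the sources used.

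Resident macrophages of the embryo descend largely from yolk sac and fetal liver progenitors, settle in tissues before birth and clear dying cells. Their development requires PU.1, the transcription factor encoded by Spi1, and their surface carries scavenger, lectin and Fc receptors that signal through adaptors such as Tyrobp and Fcer1g. Scavenger and lectin receptors such as Mrc1, Lyve1 and Stab1 mark macrophages that lie along vessels and in connective tissue, while Ptprc, Coro1a and Vav1 are shared by nearly all leukocytes.

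Levels are log2 of a spot's processed signal divided by the 75th percentile of its array, so 0 is the 75th percentile and 1 unit is a doubling. Differences are outer minus intermediate. That percentile was 47.4, 290 and 150 on outer replicates 1, 2 and 3, and 144, 265 and 344 on intermediate replicates 1, 2 and 3. Outer replicate 1 was the dimmest array, with 35.6% of its spots well above background, and the other 5 arrays had 45.1% to 53.4%. The lowest level well above background was -1.81 on outer replicate 1, -4.68 on outer replicate 2 and -3.66 on outer replicate 3, and between -4.66 and -3.60 on the intermediate arrays. Outer replicate 1 shared slide 1 with the 3 intermediate arrays, and outer replicates 2 and 3 were on slide 2. Gdf5, a growth factor gene that marks the interzone, was well above background on all 6 arrays, at 5.69 ± 1.07 in outer and 5.69 ± 0.89 in intermediate interzone (SD, n = 3 each). The median difference over all genes tested was 0.10.

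Macrophage and myeloid genes were lower in outer than in intermediate interzone for 24 of the 36 that could be tested, and for none higher (limma adjusted p under 0.05). Scavenger receptors such as Mrc1, signalling adaptors such as Tyrobp and lysosomal genes such as Cd68 were among the 24. A gene was tested where its probe cleared the background flag on all 3 arrays of either layer. The other 12 of the 36 did not pass, and the remaining 6 of the 42 were not tested. Over all genes tested, 2.48% were called lower and 1.57% higher. In 34 of the 36 the 3 outer arrays lay below the 3 intermediate arrays, which 11.4% of all genes did, and Dab2 and Tlr7 overlapped. Only 14 of the 36, Dab2 and Tlr7 among them, were well above background on all 6 arrays. The others entered the test through the intermediate arrays alone, which favours such a separation, so the 34 is a description. Over the 36 genes the differences ran from -4.46 to 0.26 with a median of -2.97. The calls depended on single arrays. Without outer replicate 3 there were 3 calls, without intermediate replicate 1 there were 4, without intermediate replicate 2 there were 10, and without intermediate replicate 3 there were 0 by limma. In that last fit 34 of the 36 had an unadjusted p under 0.05 and the median was -2.83. Calls lower over all genes moved in the same way, to 0.217%, 0.311%, 1.17% and 0.111% in these fits, in the same order. With normexp background correction, which pulls dim signals together, the median of the 36 was -1.89. Fewer cells of a type and less RNA per cell cannot be told apart in these bulk samples.

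**Figure D1:**
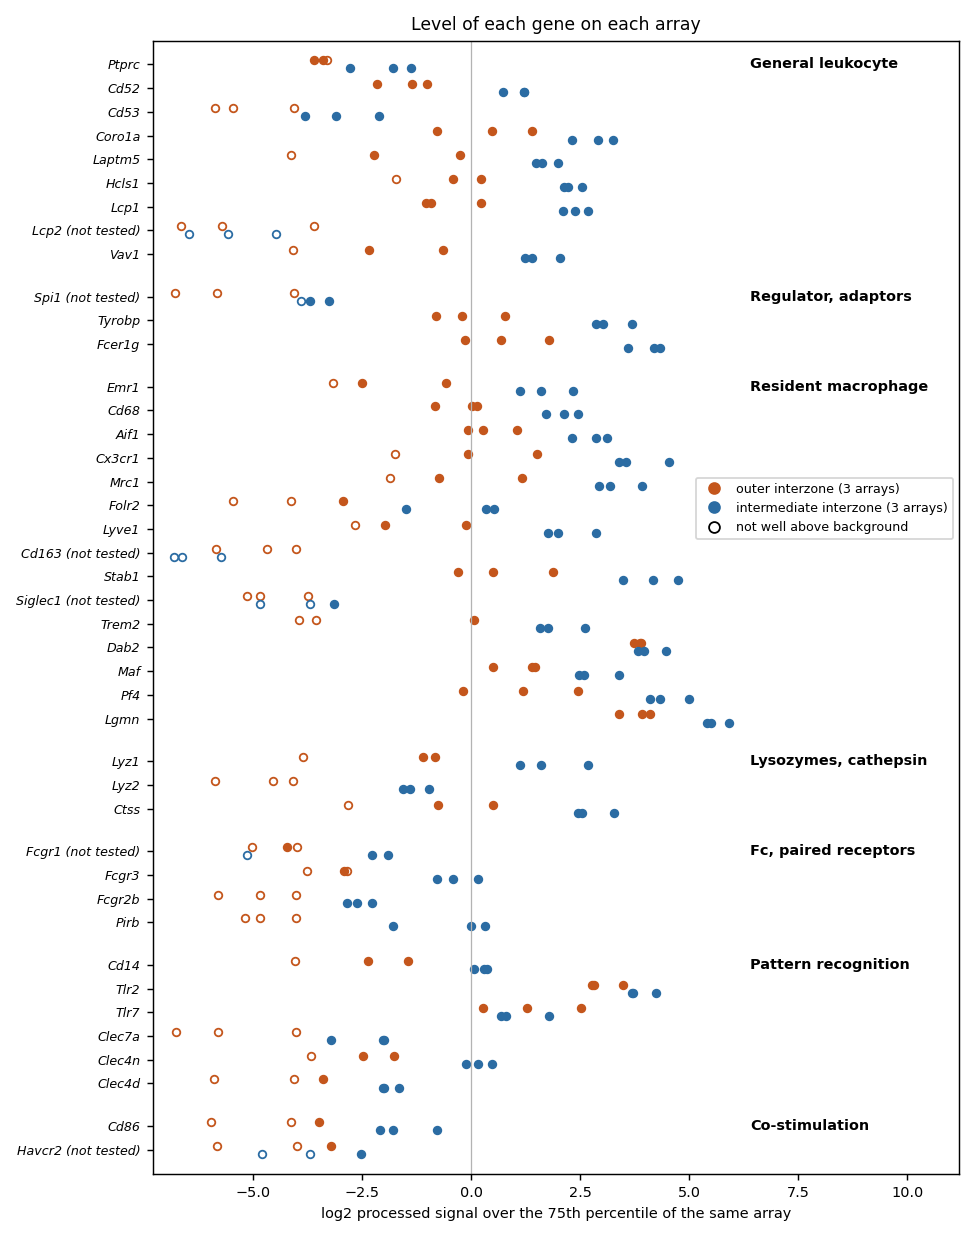
Level of each of the 42 genes on each array (log2 signal over the array's 75th percentile), by role, with outer arrays and intermediate arrays marked apart. In 34 of the 36 tested genes the 3 outer arrays lie below the 3 intermediate arrays, and open marks are spots not well above background. Only 14 of the 36 were well above background on all 6 arrays. The others entered the test through the intermediate arrays alone, which favours such a separation.

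Of the 36 genes, 22 were tested only because the intermediate arrays measured them. That way of entry favours genes that are lower in outer interzone, and their count supports nothing. All 22 were not well above background on outer replicate 1, so their outer means and their differences rest in part on levels that were not firmly measured. The other 14 were well above background on all 6 arrays. Among those 14, 10 were called lower, with a median difference of -2.40 and a range of -3.45 to 0.26. When every gene was held to that filter, the same test called 1.43% of 14804 genes lower. The mean level over the 14 was 0.59, 1.56 and 0.87 on the outer arrays, against 3.09, 2.96 and 3.48 on the intermediate arrays. The 2 layers did not overlap in this mean.

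The adaptors and the regulator of the lineage come first. Tyrobp, also called DAP12, passes signals from receptors that lack a signalling tail of their own. It stood at -0.82, 0.78 and -0.21 in outer interzone, against 3.03, 2.85 and 3.68 in intermediate interzone. The layers did not overlap, and the difference was -3.27 ± 0.43 (SE), a 9.64-fold lower signal in outer interzone (limma adjusted p = 0.0159). Fcer1g, the common gamma chain of Fc receptors, stood at -0.15, 1.78 and 0.69 in outer interzone, against 4.18, 3.59 and 4.32 in intermediate interzone. The lowest intermediate array lay above the highest outer one, with a difference of -3.26 ± 0.48 (limma adjusted p = 0.0193). Spi1 was not tested. Its level was -4.07, -6.80 and -5.84 in outer interzone, where no array was well above background, against -3.90, -3.69 and -3.26 in intermediate interzone, where 2 arrays were. Neither adaptor passed without outer replicate 3, without intermediate replicate 1 or without intermediate replicate 3. The regulator itself was thus at the edge of what the arrays could measure.

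The probes of Spi1, Tyrobp and, as a second probe, Vav1 are shown because each spans more of the genome than its 60 bases, 13788, 1728 and 3403 bases in that order. Such a probe joins pieces that lie apart in the genome and so reads spliced RNA. The sequences and positions are those of the array files.
Spi1 probe, mm9 chr2:90939665-90953452, plus strand: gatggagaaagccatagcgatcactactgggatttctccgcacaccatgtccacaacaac
Tyrobp probe, mm9 chr7:31200651-31202378, plus strand: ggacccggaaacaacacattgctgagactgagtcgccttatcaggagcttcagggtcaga
Vav1 probe, mm9 chr17:57451288-57454690, plus strand: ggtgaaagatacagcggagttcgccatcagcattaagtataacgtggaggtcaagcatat

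Resident macrophage genes gave the largest group, with 13 of 15 tested and 11 called lower in outer interzone, against 2.48% of all genes. Only 7 of the 13 were well above background on all 6 arrays, and the others entered the test through the intermediate arrays alone. When every gene was held to the filter on all 6 arrays, 6 of the 7 were called lower, against 1.43% of all genes. Over the 13 genes the median difference was -3.45 and the range -4.46 to -0.26. The calls numbered 9 without outer replicate 1, 12 without outer replicate 2, 0 without outer replicate 3, and 1, 3 and 0 without intermediate replicates 1, 2 and 3. In the same order, 2.11%, 3.48%, 0.217%, 0.311%, 1.17% and 0.111% of all genes were called lower. At an unadjusted p under 0.05, limma gave 12 of the 13 without outer replicate 3 and 12 without intermediate replicate 3. Cd163, a haemoglobin scavenger receptor, was well above background on no array, and Siglec1, a sialic acid lectin of macrophages, on intermediate replicate 3 alone.

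The scavenger and lectin receptors take up debris and sugars. Mrc1, the mannose receptor CD206 (probe at mm9 chr2:14253273-14253332, plus strand), stood at -1.87, 1.16 and -0.74 in outer interzone, against 3.19, 2.93 and 3.93 in intermediate interzone. The difference was -3.83 ± 0.72, or 14.2-fold lower in outer interzone (limma adjusted p = 0.0382), with outer replicate 1 not well above background. Stab1 (probe at mm9 chr14:31952288-31952347, minus strand) encodes stabilin-1, a scavenger receptor of macrophages and of some endothelium. It stood at -0.31, 1.88 and 0.50 in outer interzone, against 4.18, 3.49 and 4.74 in intermediate interzone, a difference of -3.45 ± 0.58 (limma adjusted p = 0.0262). Lyve1, a hyaluronan receptor that lymphatic endothelium also carries, stood at -2.67, -0.11 and -1.97 in outer interzone, against 1.98, 1.76 and 2.85 in intermediate interzone. Its difference was -3.78 ± 0.65 (limma adjusted p = 0.0282), with outer replicate 1 not well above background. In none of these 3 genes did the layers overlap, and outer replicate 2 was the highest outer array in each. Folr2, a folate receptor of resident macrophages, stood at -4.13, -2.93 and -5.46 in outer interzone, where replicate 2 alone was well above background, against 0.51, -1.49 and 0.33 in intermediate interzone. The difference was -3.96 ± 0.75 (limma adjusted p = 0.0389).

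Receptors and markers that define macrophages in tissue sections were lower too. Emr1 stood at -3.16, -0.58 and -2.51 in outer interzone, against 1.60, 1.13 and 2.34 in intermediate interzone, with a difference of -3.78 ± 0.66 (limma adjusted p = 0.0311). Cx3cr1, the fractalkine receptor of monocytes and macrophages (probe at mm9 chr9:119957811-119957870, minus strand), stood at -1.75, 1.52 and -0.07 in outer interzone, against 3.39, 3.56 and 4.54 in intermediate interzone. Its difference was -3.93 ± 0.78, or 15.3-fold lower in outer interzone (limma adjusted p = 0.0437). For both genes outer replicate 1 was not well above background, so the outer level there has no firm value. Cd68, a lysosomal glycoprotein of macrophages, was measured on all arrays, at 0.02, 0.14 and -0.83 in outer interzone, against 2.14, 1.71 and 2.44 in intermediate interzone. Its difference was -2.32 ± 0.32, or 4.99-fold lower in outer interzone (limma adjusted p = 0.0169). Aif1, the calcium-binding protein IBA1, stood at -0.08, 1.04 and 0.28 in outer interzone, against 2.32, 2.86 and 3.11 in intermediate interzone. The difference of -2.35 ± 0.34 had a limma adjusted p of 0.0183. Trem2, a lipid-sensing receptor that signals through Tyrobp, stood at -3.56, 0.07 and -3.95 in outer interzone, against 2.62, 1.76 and 1.59 in intermediate interzone. The layers did not overlap, but outer replicate 2 alone was well above background among the outer arrays. Its fitted difference of -4.46 ± 1.01 did not pass (limma adjusted p = 0.0612) and rests on outer levels that were mostly not measured.

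**Figure D2:**
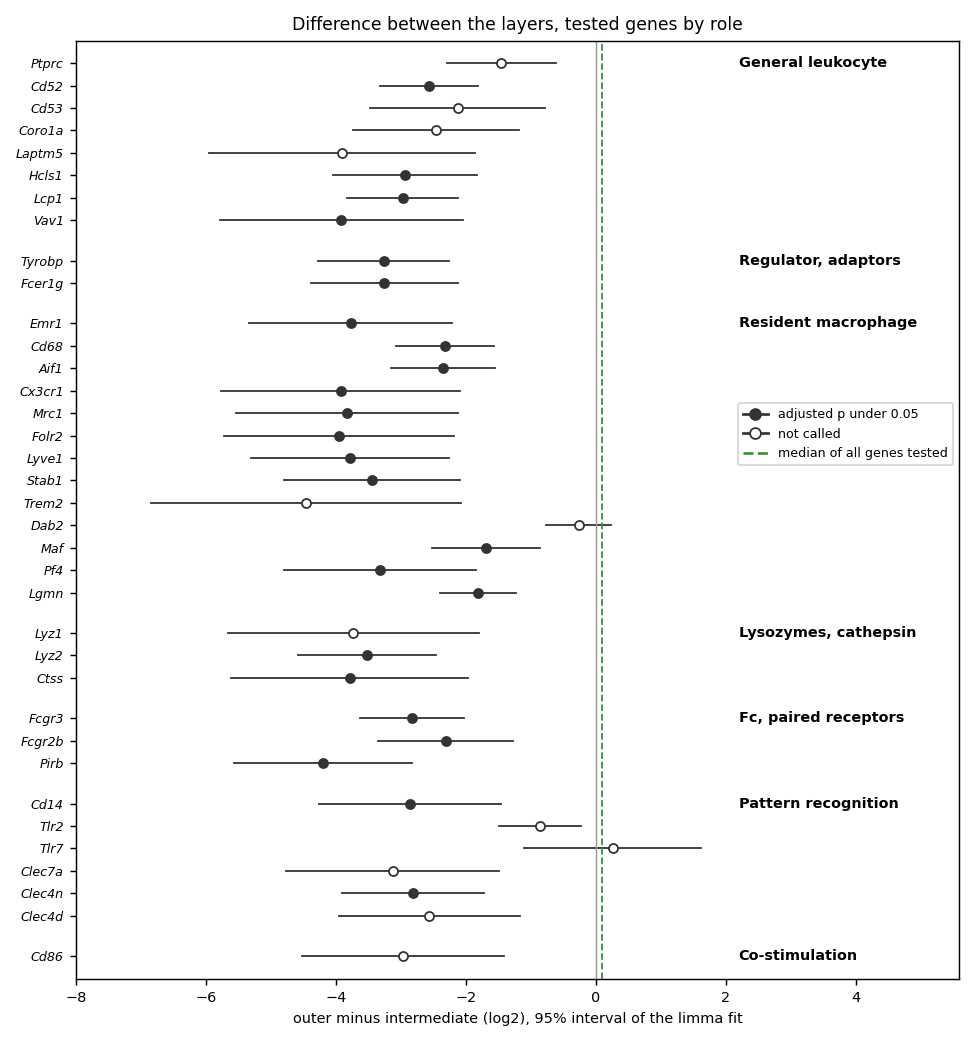
Outer minus intermediate difference (log2) of each tested gene with the 95% interval of the limma fit, by role, filled where the adjusted p was under 0.05. The intervals of Dab2 and Tlr7 include 0, the dashed line is the median of all genes tested, 0.10, and Cd53, Lyz2, Fcgr2b, Pirb and Clec7a were well above background on no outer array, so their points are fitted values only.

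Secreted and lysosomal products and regulators were measured on all 6 arrays. Pf4, a chemokine of platelets that macrophages also make, stood at -0.18, 2.46 and 1.18 in outer interzone, against 4.34, 4.10 and 4.99 in intermediate interzone. The difference was -3.33 ± 0.63 (limma adjusted p = 0.0386), and the layers were apart. Lgmn, the lysosomal protease legumain (probe at mm9 chr12:103632415-103632474, minus strand), stood at 3.40, 4.10 and 3.92 in outer interzone, against 5.51, 5.42 and 5.92 in intermediate interzone. Its difference of -1.81 ± 0.25 was among the smaller ones and had a limma adjusted p of 0.0167. Maf encodes c-MAF, a transcription factor of macrophages that other cells use too. It stood at 0.50, 1.47 and 1.40 in outer interzone, against 2.60, 2.47 and 3.38 in intermediate interzone, a difference of -1.69 ± 0.35 (limma adjusted p = 0.0486). Dab2, an endocytic adaptor that many cell types express (probe at mm9 chr15:6390616-6390675, plus strand), did not pass. It stood at 3.73, 3.89 and 3.86 in outer interzone, against 3.97, 3.82 and 4.47 in intermediate interzone, so the layers overlapped. Its difference was -0.26 with a 95% interval of -0.76 to 0.24 (limma adjusted p = 0.519).

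Of the general leukocyte genes, 8 of 9 were tested and 4 were called lower in outer interzone, against 2.48% of all genes. In all 8 the outer arrays lay below the intermediate arrays, which 11.4% of all genes did. Only 3 of the 8 (Cd52, Coro1a and Lcp1) were well above background on all 6 arrays. The others entered the test through the intermediate arrays alone, which favours such a separation. The median difference was -2.75 and the range -3.92 to -1.45. Single arrays moved this count too, to 6, 6, 1, 2, 2 and 0 by limma without outer replicates 1, 2 and 3 and intermediate replicates 1, 2 and 3 in that order, and without intermediate replicate 3 there were 8 at an unadjusted p under 0.05. Scaling to the array median gave 8, but it also raised the share of all genes called lower from 2.48% to 5.21%. Lcp1, the actin-bundling protein plastin 2, stood at -1.05, 0.23 and -0.92 in outer interzone, against 2.39, 2.11 and 2.68 in intermediate interzone. The difference was -2.97 ± 0.36 (limma adjusted p = 0.0131). Cd52, a small surface glycoprotein of leukocytes, stood at -1.35, -1.02 and -2.17 in outer interzone, against 0.73, 1.21 and 1.20 in intermediate interzone. The difference was -2.56 ± 0.32, or 5.91-fold lower in outer interzone (limma adjusted p = 0.014). Hcls1, a cortactin-like actin regulator, was at -2.94 ± 0.47 (limma adjusted p = 0.024) and Vav1, a signalling protein of blood cells, at -3.92 ± 0.79 (limma adjusted p = 0.0456). For both, outer replicate 1 was not well above background. The second Vav1 probe, printed above, differed by -3.08 and was well above background on no outer array.

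The 4 general leukocyte genes that did not pass were Ptprc, Cd53, Coro1a and Laptm5. Ptprc encodes CD45, the phosphatase that defines leukocytes. It stood at -3.30, -3.61 and -3.41 in outer interzone, against -2.79, -1.81 and -1.37 in intermediate interzone. The layers were apart, but all 6 levels were low and outer replicate 1 was not well above background. The difference was -1.45 ± 0.35 (limma adjusted p = 0.0759). Coro1a, an actin regulator of leukocytes, stood at -0.78, 1.40 and 0.47 in outer interzone, against 2.31, 2.92 and 3.24 in intermediate interzone, a difference of -2.46 ± 0.54 (limma adjusted p = 0.0571). Laptm5, a lysosomal membrane protein of blood cells, differed by -3.91 ± 0.87 (limma adjusted p = 0.0583). Its outer levels were -4.13, -0.26 and -2.23, against 1.62, 1.49 and 2.00 in intermediate interzone. Outer replicate 1, the lowest, was not well above background, so the wide outer spread rests in part on a level that was not firmly measured. Cd53, a tetraspanin of leukocytes, was well above background on no outer array and at least 1.30-fold lower in outer interzone (limma adjusted p = 0.0969). The bound sets the intermediate mean against, on each outer array, the higher of the probe's own level and the lowest level well above background. Lcp2, an adaptor of T cell and platelet signalling, was well above background on no array.

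The gap between resident macrophage and general leukocyte genes was read on each array. Their mean levels differed, resident minus general, by 1.79, 2.23 and 1.77 on the outer arrays, against 2.35, 1.89 and 2.16 on the intermediate arrays. The layers overlapped. Probes of different genes are not on 1 scale, so only the change of this gap between arrays can be read. Over the 7 resident and 3 general genes measured on all 6 arrays, the gap was 2.07, 1.94 and 2.34 in outer interzone, against 1.77, 1.33 and 1.77 in intermediate interzone. There the outer arrays were the higher ones, so the comparison of the roles changed with the genes that entered it.

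**Figure D3:**
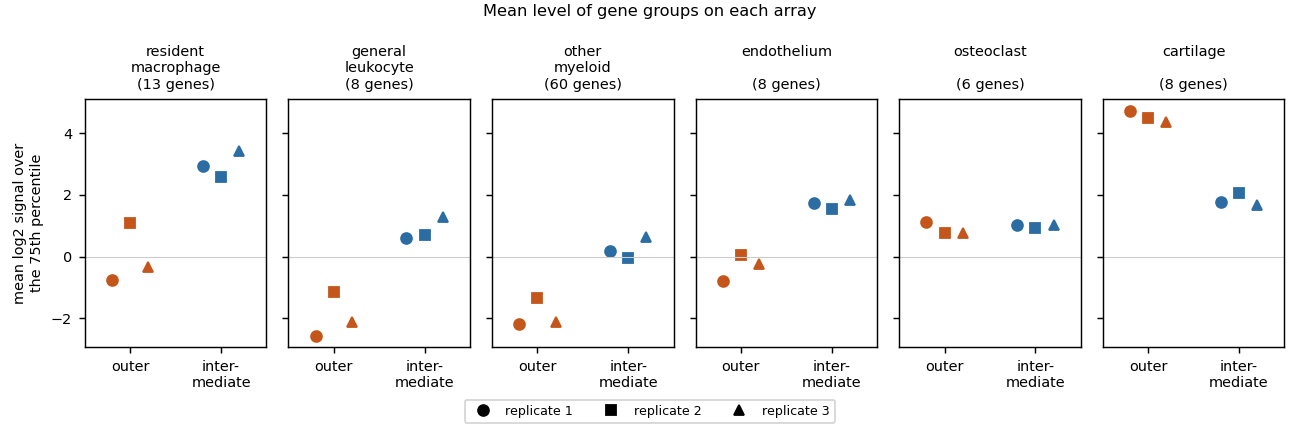
Mean level (log2 signal over the array's 75th percentile) of the tested genes of each group on each array, outer arrays left of intermediate arrays. The resident macrophage mean is -0.77, 1.09 and -0.34 on the outer arrays, against 2.95, 2.58 and 3.43 on the intermediate arrays.

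The lysozymes and cathepsin S break down bacterial walls and proteins. All 3 genes were tested and 2 were called lower, against 2.48% of all genes. None was well above background on all 3 outer arrays, so each entered the test through the intermediate arrays only, which favours a lower call. The calls numbered 3, 3 and 1 without outer replicates 1, 2 and 3, and 0, 1 and 0 without intermediate replicates 1, 2 and 3. All 3 had an unadjusted p under 0.05 by limma each time. In the same order, 2.11%, 3.48%, 0.217%, 0.311%, 1.17% and 0.111% of all genes were called lower. Lyz2, the lysozyme of myeloid cells, was well above background on no outer array, at -4.09, -4.54 and -5.87, against -1.40, -1.56 and -0.96 in intermediate interzone. It was at least 4.07-fold lower in outer interzone (limma adjusted p = 0.015). Ctss, a protease of antigen processing, stood at -2.84, 0.49 and -0.75 in outer interzone, against 2.46, 2.55 and 3.27 in intermediate interzone. The difference was -3.79 ± 0.77 (limma adjusted p = 0.0466), with outer replicate 1 not well above background. Lyz1 lies next to Lyz2 and is a near copy of it, so the probe of each may bind RNA of the other. Lyz1 differed by -3.73 ± 0.82 (limma adjusted p = 0.057), with outer replicate 1 not well above background.

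Of the Fc and paired receptors, 3 of 4 were tested and all 3 were called lower, against 2.48% of all genes. None of the 3 was well above background on all 3 outer arrays, so all entered the test through the intermediate arrays only. That entry favours a lower call, and their count supports nothing. There was 1 call without outer replicate 3 or without intermediate replicate 1, where 0.217% and 0.311% of all genes were called lower. Without intermediate replicate 3 limma gave 0 calls (0.111% of all genes), and 3 had an unadjusted p under 0.05. Fcgr3, a low-affinity receptor for IgG that pairs with Fcer1g, stood at -2.85, -2.91 and -3.76 in outer interzone, against -0.42, -0.78 and 0.16 in intermediate interzone. The difference was -2.83 ± 0.34 (limma adjusted p = 0.0124), but outer replicate 2 was the only outer array well above background. Fcgr2b, the inhibitory Fc receptor, was well above background on no outer array and at least 1.74-fold lower in outer interzone (limma adjusted p = 0.0387). Pirb, an inhibitory receptor for MHC class I, was also well above background on no outer array, at -4.02, -4.84 and -5.20, against -0.02, -1.79 and 0.32 in intermediate interzone. It was at least 7.41-fold lower in outer interzone (limma adjusted p = 0.0173). Pirb belongs to a family of near-identical genes, and other probes that the files name Lilrb3 gave a different result. The brightest of them averaged 8.93 in outer and 8.59 in intermediate interzone, a difference of 0.34, so the value for Pirb is uncertain. Fcgr1, the high-affinity IgG receptor, was well above background on 1 outer and 2 intermediate arrays and was not tested.

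Of the 6 pattern recognition genes, which sense microbial products, 2 were called lower (Cd14 and Clec4n), against 2.48% of all genes. Only Tlr2 and Tlr7 were well above background on all 6 arrays, so the 2 called genes entered the test through the intermediate arrays only. No gene of this role was called by limma without outer replicate 3 or without any 1 of the intermediate arrays, where 4 or 5 had an unadjusted p under 0.05, and 5 were called with the replicate block. Cd14, the co-receptor for lipopolysaccharide, stood at -4.04, -1.46 and -2.38 in outer interzone, against 0.06, 0.36 and 0.29 in intermediate interzone (difference -2.86 ± 0.59, limma adjusted p = 0.0482). Clec4n, the fungal lectin receptor dectin-2, differed by -2.81 ± 0.46 (limma adjusted p = 0.0251). For Cd14 and Clec4n outer replicate 1 was not well above background. The lectin Clec7a was well above background on no outer array and at least 1.96-fold lower in outer interzone, which did not pass (limma adjusted p = 0.0585). The lectin Clec4d, well above background on 1 outer array, did not pass either (limma adjusted p = 0.0648). Tlr2, a receptor for lipoproteins, was bright in both layers, at 2.77, 3.48 and 2.81 in outer interzone, against 3.72, 4.25 and 3.68 in intermediate interzone. The difference was -0.86 with a 95% interval of -1.49 to -0.24 (limma adjusted p = 0.131), although the layers did not overlap. Tlr7, a receptor for single-stranded RNA, stood at 2.52, 0.28 and 1.27 in outer interzone, against 1.79, 0.69 and 0.80 in intermediate interzone. The layers overlapped and the interval of the difference of 0.26 was -1.10 to 1.62 (limma adjusted p = 0.83), and scaling to the array median turned it to -0.13. A second tested Tlr7 probe differed by -1.97, so the 2 probes disagree in sign. In the last role, Cd86, a co-stimulatory ligand for T cells, differed by -2.97 ± 0.66 (limma adjusted p = 0.0577) and was well above background on 1 outer array. Havcr2, the checkpoint receptor TIM-3, was well above background on 1 array of each layer and was not tested.

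The replicate numbers and the slides bear on these calls. With the replicate number as a block, 28 of the 36 genes were called lower, against 4.44% of all genes, and 23 of them were among the 24. Coro1a, Lyz1, Tlr2, Clec7a and Clec4d passed in that fit, and Folr2 did not (adjusted p = 0.0584, with a range of 0.00939 to 0.173 over its alternatives). With the slide as a block, which leaves the difference to slide 1, 25 were called, against 4.08% of all genes. The median difference was -3.57 in that fit and on slide 1 alone. With slide and replicate number together the fit called 8, against 2.26% of all genes, and 5 of the 24 kept their call. The median difference in that fit was -3.50. Outer replicate 1 is the only outer array of slide 1, so slide and outer layer cannot be told apart for the other 2 outer arrays. The differences on slide 1 or with a slide block thus rest on outer replicate 1. Only 14 of the 36 genes were well above background on that array.

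The difference was also taken between outer and intermediate samples of the same replicate number. The median over the 36 genes was -3.50 for replicate 1, -1.81 for replicate 2 and -3.80 for replicate 3, with 35 of 36 negative each time. Over all genes tested the median was 0.11, 0.06 and 0.11 in that order. Most of the 36 entered the test through the intermediate arrays alone, which favours negative differences, so the 35 is a description. Over the 14 genes measured on all arrays the median was -2.26, -1.59 and -3.05 for replicates 1, 2 and 3. Outer replicate 2 was the highest outer array for 28 of the 36 genes and for 13 of the 14, and intermediate replicate 3 was the highest intermediate array for 29 and for 11.

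Genes of the same lineage outside the named set were taken from a list of 72. Of these, 60 were tested, 35 were called lower in outer interzone and 0 higher, against 2.48% and 1.57% of all genes. The median difference was -2.53 with a range of -3.88 to 0.76. Among them Ms4a7, a tetraspan protein of macrophages, differed by -3.88 (limma adjusted p = 0.0426). C1qa and C1qc, chains of complement C1q that macrophages secrete, differed by -3.78 and -3.74 (limma adjusted p = 0.0241 and 0.0377). Plek, pleckstrin of platelets and leukocytes, differed by -3.47 (limma adjusted p = 0.0361). Each of these named genes was well above background on 2 outer arrays, so each was tested only because the intermediate arrays measured it. Without outer replicate 3 there were 3 calls, without intermediate replicate 1 there were 3, without intermediate replicate 2 there were 16 and without intermediate replicate 3 there were 2. Only 16 of the 60 were well above background on all 6 arrays, and when all genes were held to that filter 6 were called. The list was drawn up with earlier results of these arrays known, and its count is a description.

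Markers of other cells moved with the layers too. The endothelial list had 8 of 8 genes tested, 6 called lower in outer interzone (against 2.48% of all genes) and a median of -2.36. Its differences ran from -2.93 to 0.82, and limma gave all 8 an unadjusted p under 0.05, 7 of them lower. The calls numbered 2 without outer replicate 3, 2 without intermediate replicate 1 and 0 by limma without intermediate replicate 3, where 7 had an unadjusted p under 0.05. Emcn, an endothelial sialomucin, differed by -2.93 (limma adjusted p = 0.0081) and Tek, the angiopoietin receptor, by -2.92 (limma adjusted p = 0.00905). Emcn was well above background on 2 outer arrays and Tek on 1, so both were tested only because the intermediate arrays measured them. When all genes were held to the filter on all 6 arrays, 3 endothelial genes were called lower and the list's median was -1.92. That filter called 1.43% of all genes lower. The mean endothelial level was -0.80 to 0.07 on the outer arrays, against 1.53 to 1.85 on the intermediate arrays, and its part in the macrophage result was not tested. The cartilage list went the other way, with 6 of 8 genes called higher in outer interzone, against 1.57% of all genes. Its mean was 4.37 to 4.73 on the outer arrays, against 1.67 to 2.06 on the intermediate arrays. It had 3 calls without outer replicate 3 and 3 without intermediate replicate 3. Its part in the macrophage result was not tested. Col9a1, a collagen on the surface of cartilage fibrils, differed by 4.28 (limma adjusted p = 0.00671) and Col2a1, the collagen of cartilage, by 3.19 (limma adjusted p = 0.011).

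Markers of other blood lineages could be tested only in part, and some of them were bright in both layers. Csf3r of the neutrophil list stood at 6.13 in outer and 5.62 in intermediate interzone. Cd4 and Cd3e of the T and NK cell list stood at 2.46 and 2.02 in outer interzone, against 1.90 and 1.37 in intermediate interzone. Of the neutrophil list 5 of 12 genes were tested and 0 called by limma, with 4 at an unadjusted p under 0.05, 2 of them lower. Its differences ran from -3.27 to 0.71, and Csf3r and Elane, its brightest genes, differed by 0.51 and 0.71. Of the T and NK cell list 4 of 13 were tested and 0 called by limma. All 4 had positive differences, with a median of 0.61 and 3 at an unadjusted p under 0.05, and 6 were well above background on no array. Of the mast cell and basophil list 3 of 9 were tested and 0 called by limma, with 1 at an unadjusted p under 0.05. Osteoclasts share a progenitor with macrophages. Their list had 6 of 10 genes tested, 0 called by limma, 2 at an unadjusted p under 0.05 (1 lower and 1 higher) and a median of -0.08, and the mean level was 0.76 to 1.11 on the outer arrays, against 0.93 to 1.03 on the intermediate arrays. Cd79b of the B cell list, part of the B cell receptor, differed by -2.06 (limma adjusted p = 0.0219), the only call among 4 tested of 9. Itga2b of the platelet list, an integrin subunit, differed by -2.07 (limma adjusted p = 0.022), the only call among 4 tested of 6. Both calls were lost without outer replicate 3, intermediate replicate 1 or intermediate replicate 3, and with the slide as a block, and that of Itga2b also without intermediate replicate 2. Cd79b was well above background on 2 outer arrays and Itga2b on 1, so both entered the test through the intermediate arrays only. Of the lymphatic list 2 of 6 were tested and 0 called by limma, with 1 at an unadjusted p under 0.05, and Prox1, its defining transcription factor, was well above background on no array.

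**Figure D4:**
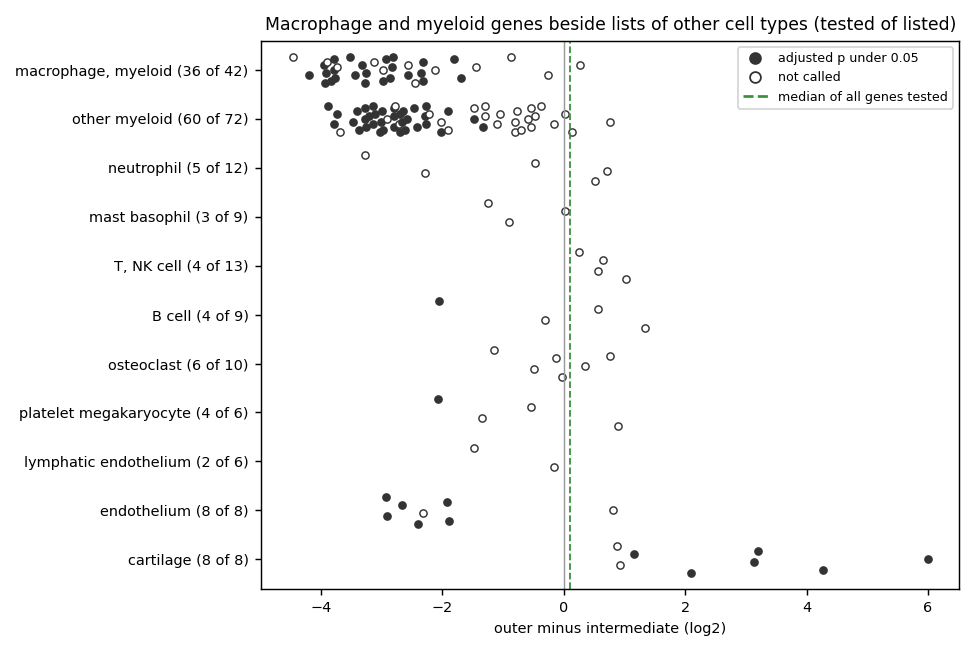
Outer minus intermediate difference (log2) of each tested gene among the 36 and in the lists of other cell types, filled where the adjusted p was under 0.05, with a dashed line at the median of all genes tested. Of 8 endothelial genes 6 are called lower and of 8 cartilage genes 6 are called higher, and between 2 and 6 genes could be tested of each list of other blood cells, osteoclasts and lymphatic endothelium.

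Promoters of the genes were searched for the letters GAGGAA on either strand, which are part of the motif that PU.1 binds. They hold GGAA, the core shared by factors of the ETS family. The window was the 250 bases before the start in the RefSeq promoters of GRCm38.p6, where 31 of the 42 genes have an entry. The letters were present for 18 of the 31 genes (58.1%), and for 25.9% of 27025 genes with a promoter. Among the called genes 9 of 17 held them (52.9%). A match is a description of the letters in this window and not a site. The 120 bases before the start are shown for 4 of the called genes whose match lies in that stretch, with the matched letters in capitals. Capitals read TTCCTC where the match is on the opposite strand.
Mrc1 promoter, GRCm38.p6 chr2:14229294-14229413, plus strand: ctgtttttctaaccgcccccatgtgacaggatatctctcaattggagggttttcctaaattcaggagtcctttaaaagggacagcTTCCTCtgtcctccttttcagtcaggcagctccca
Aif1 promoter, GRCm38.p6 chr17:35176053-35176172, minus strand: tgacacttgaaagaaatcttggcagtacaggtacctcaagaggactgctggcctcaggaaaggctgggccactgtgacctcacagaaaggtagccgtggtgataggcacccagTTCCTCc
Pirb promoter, GRCm38.p6 chr7:3720383-3720502, minus strand: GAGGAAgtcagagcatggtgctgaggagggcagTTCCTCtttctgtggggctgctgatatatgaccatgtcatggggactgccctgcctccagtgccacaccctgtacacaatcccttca
Vav1 promoter, GRCm38.p6 chr17:57278980-57279099, plus strand: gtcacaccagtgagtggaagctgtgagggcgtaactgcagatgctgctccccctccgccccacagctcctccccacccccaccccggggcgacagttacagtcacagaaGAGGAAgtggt
The nearest match lies 7 bases before the start in Aif1, 11 in Vav1, 35 in Mrc1 and 87 in Pirb.

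**Figure D5:**
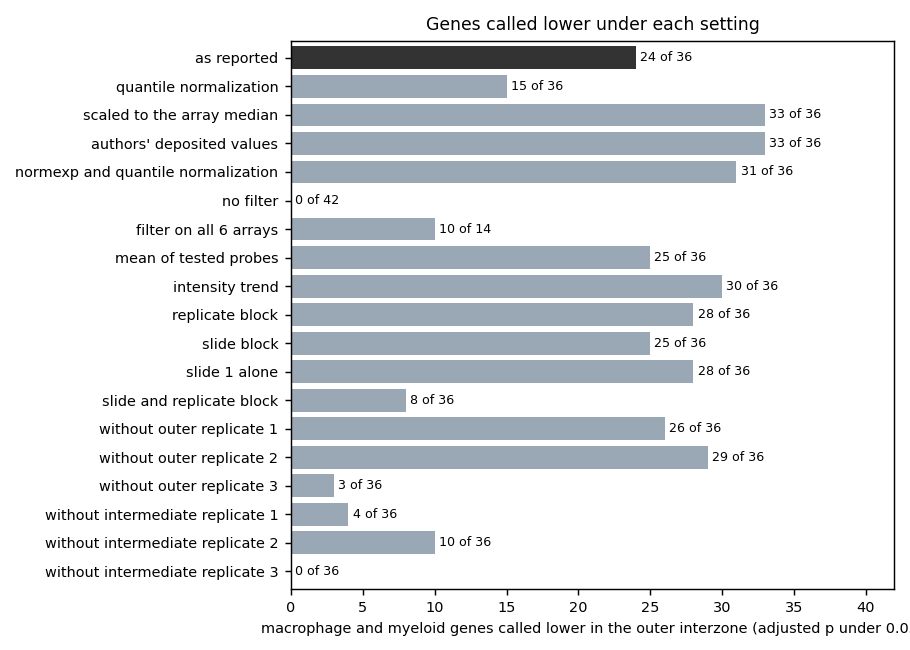
Number of tested genes called lower in outer interzone under each setting of the processing and with each array left out. The count is 24 as reported and ranges from 0 to 33. The 33 came with scaling to the array median and with the authors' values, where 5.21% of all genes were called lower.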

How the data were processed

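The deposited scanner files hold, per the file headers, a background-subtracted intensity for every spot. Version 10.7.3.1 of Agilent Feature Extraction made them. RNA was amplified and labelled with Cy3, per the labels' protocols, and Partek 6.11.0321 is named in the submitters' processing notes. The authors' deposited table holds the same processed intensity divided by each array's median. Printed positions are the files' probe positions in mm9. Where probes lie within exons or UTRs was not looked up.

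From the 59305 spots, spots of a probe were averaged as log2 values without flagged outliers and 9 probes were dropped. Symbols were updated through RefSeq accessions, of which 26760 of 28388 matched. The log2 signal minus the array's 75th percentile was tested with limma 3.58.1 (R 4.3.3, lmFit and eBayes, two-sided) on 3 outer and 3 intermediate arrays. Each gene was its brightest tested probe, with Benjamini-Hochberg adjustment over 18001 genes. The number of arrays limits the precision. The fit was run on simulated data in which the spread between arrays was capped and the planted shifts were large. That run does not show how the fit performs on genes as variable as Trem2 or Laptm5.

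The genes and lists were chosen with earlier results of these data known. Any of the 42 genes could be named, and from each list up to 4 called genes with the largest difference, or the 2 brightest tested. Pirb was taken by its RefSeq probe after its values were seen. Deviations from the group means correlated at 0.563, 0.479 and 0.372 between samples of the same replicate number. Between unlike numbers the correlations were -0.533 to 0.114. The reported fit did not pair the samples. Pairing by number was used only in the fits with a replicate block and in the differences between samples of the same number. The labels do not say that a shared number marks the same embryo in both layers. Alternatives were other scalings, background correction (normexp, offset 50), filters, probe rules, an intensity trend, blocks for replicate number and slide, and each array left out.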

Additional observations from a re-analysis of the deposited data

How the results depend on the processing

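The difference of Tlr7 turned to -0.13 under scaling to the array median and with the authors' deposited values, to -0.85 with the mean of its probes and to -0.32 without outer replicate 1 (up to 0.80 without outer replicate 2), and that of Pirb turned to 0.34 by the brightest probe named Lilrb3, an alternative chosen after seeing the data. The other 34 tested genes kept their sign under every alternative in which they were tested. Quantile normalization gave 15 calls of the 36 genes, 4 of the resident macrophage genes and 16 of the other myeloid list. Without a filter limma called 0 in each group and none of 35076 genes, with 35, 12, 8 and 50 at an unadjusted p under 0.05 for the named genes, the resident macrophage genes, the general leukocyte genes and the other myeloid list. With a filter on all 6 arrays the calls were 10, 6, 2 and 6 in that order, and with slide and replicate block together they were 8, 0 (12 at an unadjusted p under 0.05), 2 and 8. The general leukocyte count was 8 under scaling to the array median and with the authors' values, where 5.21% of all genes were called lower. Leaving out each array in turn gave 0 to 29 calls for the named genes, 0 to 12, 0 to 6 and 2 to 37 in that order. Relative to the median of all genes, which was 0.10 and moved to -0.29 under scaling to the array median, the median difference of the named genes was -3.07, with -1.92 under normexp, -2.53 under the filter on all 6 arrays and -3.47 to -2.89 without single arrays. That of the resident macrophage genes was -3.54, with -2.63 under normexp, -2.44 under the filter on all 6 arrays, -4.47 with the slide block and on slide 1 alone, -4.63 with both blocks and -4.10 to -3.07 without single arrays. That of the general leukocyte genes ranged from -3.23 to -2.74 without single arrays. That of the other myeloid list was -2.63, with -1.09 under normexp, -0.91 under the filter on all 6 arrays and -2.80 to -2.28 without single arrays. The filters change which genes are tested, and the blocks and left-out arrays reduce the residual degrees of freedom. The cause of the other changes was not tested. The replicate block alone gave 28 calls of the named genes and moved none of the 4 counts by over 1.5 times. Depth of signal limits what can be said of 22 of the 36 genes, which were not well above background on at least 1 outer array.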

Other observations

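The probe of Tlr2 was printed 10 times on each array, and its spots had an SD of 0.04 to 0.07 on the log2 scale. The probe of Fcgr2b was also printed 10 times, with an SD of 0.07 to 0.45. Among the neutrophil genes S100a8 and S100a9, chosen here after their values were seen, differed by -2.30 and -3.27 and did not pass.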
